A study of Jaculus jaculus with 29 samples.

Results

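The 10 genes described here are the receptors for corticosteroids and a set of their best known transcriptional targets, measured in the supraoptic nucleus of the lesser Egyptian jerboa, a desert rodent. They are Nr3c1, Nr3c2, Fkbp5, Tsc22d3, Klf9, Zbtb16, Hif3a, Sgk1, Ddit4 and Cdkn1a, chosen by symbol from 29170 genes in the count table. Of these 10 genes, 7 carry the symbol in the authors' deposited table for dehydration. Another 2, Ddit4 and Nr3c1, carry no symbol there and took theirs from the RefSeq gene whose position they share on this assembly. Tsc22d3 was taken as the only counted gene inside the RefSeq span of that name, of which it covers 11.9%, so it may hold part of the locus. All 10 had enough counts to be tested among 17558 genes.

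Polyadenylated RNA was sequenced from tissue punches of the nucleus, the site of large neurons that make vasopressin or oxytocin. Rehydrated animals (9 libraries, 4 females and 5 males) had 7 days of water restriction and then 3 days with water. Dehydrated animals (10 libraries, 6 females and 4 males) had 11 days of restriction, and Control animals (10 libraries, 5 females and 5 males) had water throughout. All animals were housed singly at 25 °C on dry food, with assignment to the groups at random; the labels give no age, strain, allele or other agent.

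Corticosteroids cross into cells and bind the glucocorticoid receptor or the mineralocorticoid receptor, which are held in the cytoplasm by chaperones, move to the nucleus and act on genes there. In the brain the mineralocorticoid receptor binds corticosterone and cortisol with higher affinity than the glucocorticoid receptor does, so the glucocorticoid receptor is filled mainly during stress and at the daily peak of the hormone. Their targets include brakes on the receptor itself, inhibitors of inflammatory transcription, and kinases and inhibitors that act on ion transport and growth signalling. Several of these targets, Sgk1, Ddit4, Klf9 and Cdkn1a among them, also respond to other signals such as neuronal activity, growth factors, low oxygen or DNA damage.

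Levels are given as CPM, the count of a gene relative to the scaled total of its library. Total counts ran from 10797577 to 18856620 per library. The library Control M01 stood apart: its score was 137 on the leading principal component (21.7% of the variance in log2 CPM), while the other libraries lay between -13.7 and 7.76. Library names carry a letter, M or F, which is not the labelled sex in 3 libraries, namely Control F03 (labelled male), Control M05 (labelled female) and Dehydrated M02 (labelled female). XIST, the transcript of the silenced X chromosome, separated the labelled sexes in all 29 libraries, at 2.28 to 7.03 CPM in labelled males and 63.7 to 104 CPM in labelled females. By name letter it overlapped, at 2.28 to 85.0 CPM in M-named and 4.89 to 104 CPM in F-named libraries. The letter was therefore kept as a label of its own beside the sex. It goes together with the library number in the column names, which is 1 to 14 or 49 in M-named and 15 to 28 in F-named libraries. Within each letter the number ran by group too. It was 1 to 5 in Control, 6 to 10 in Dehydrated and 11 to 14 or 49 in Rehydrated M-named libraries. In F-named libraries it was 15 to 19, 20 to 24 and 25 to 28 in the same order. Neither the letter nor the group within it can therefore be told apart from whatever else that numbering followed. The magnocellular marker list was detected in full, 12 of 12 genes, with a summed level of 1961 to 7273 CPM in Rehydrated, 4059 to 9817 CPM in Dehydrated and 2301 to 5307 CPM in Control libraries. In bulk punches, fewer cells of a type and less RNA per cell cannot be told apart.

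No member passed the threshold of an adjusted p under 0.05 in any of the 3 comparisons of treatment groups, over all libraries and with labelled sex as covariate. In Dehydrated against Control, 0 of 10 members were called by edgeR, against 0.125% of all genes tested, and 4 of 10 had an unadjusted p under 0.05, against 6.37% of all genes. In Rehydrated against Control, 0 of 10 were called, against 0% of all genes, and 2 of 10 had an unadjusted p under 0.05, against 7.48%. In Rehydrated against Dehydrated, 0 of 10 were called, against 0.0228% of all genes, and 0 of 10 had an unadjusted p under 0.05, against 3.88%. DESeq2 also called 0 of 10 in each comparison. Whole groups overlapped for all 10 members; they did not overlap for 0% of all genes in Dehydrated and 0% in Rehydrated against Control, and for 0.0057% in Rehydrated against Dehydrated. Oligodendrocyte markers lay lower beside these values, 11 of 11 tested genes in Dehydrated (median log2 fold change -0.24) and 10 of 11 in Rehydrated (median -0.45) against Control, with 0 past the threshold by edgeR or in the authors' deposited tables and 0 and 5 of them lower with an unadjusted p under 0.05. Their summed level was 1201 to 8332 CPM in Rehydrated, 2466 to 6448 CPM in Dehydrated and 2703 to 6771 CPM in Control libraries, and its part in the members' values was not tested. Blood markers, of which 3 of 8 were tested, were lower in Dehydrated than in Control for 3 of 3 (median log2 fold change -1.47, 0 past the threshold by edgeR or in the authors' deposited table, 2 with an unadjusted p under 0.05). Their summed level was 34.3 to 992 CPM in Rehydrated (median 172), 31.8 to 188 CPM in Dehydrated (median 56.55) and 114 to 807 CPM in Control libraries (median 203), and its part was not tested either. Immediate-early genes of neuronal activity include Klf2, Klf4, Dusp1 and Btg2. Against Control, 17 of 19 were lower in Dehydrated (median log2 fold change -0.42) and 17 of 19 in Rehydrated (median -0.29). By edgeR 0 passed the threshold, and 10 and 7 were lower with an unadjusted p under 0.05. Of 12 magnocellular markers, 7 were higher and 5 lower in Dehydrated than in Control, with 3 past the threshold by edgeR, all higher. The part of these lists was not tested. One member did differ in its response between M-named and F-named libraries. Sgk1 was lower in Dehydrated than in Control libraries under the M names and higher under the F names, a difference of -1.90 in log2 fold change (SE 0.24, edgeR adjusted p = 0.000173), the smallest p of all 17558 genes.

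**Figure D1:**
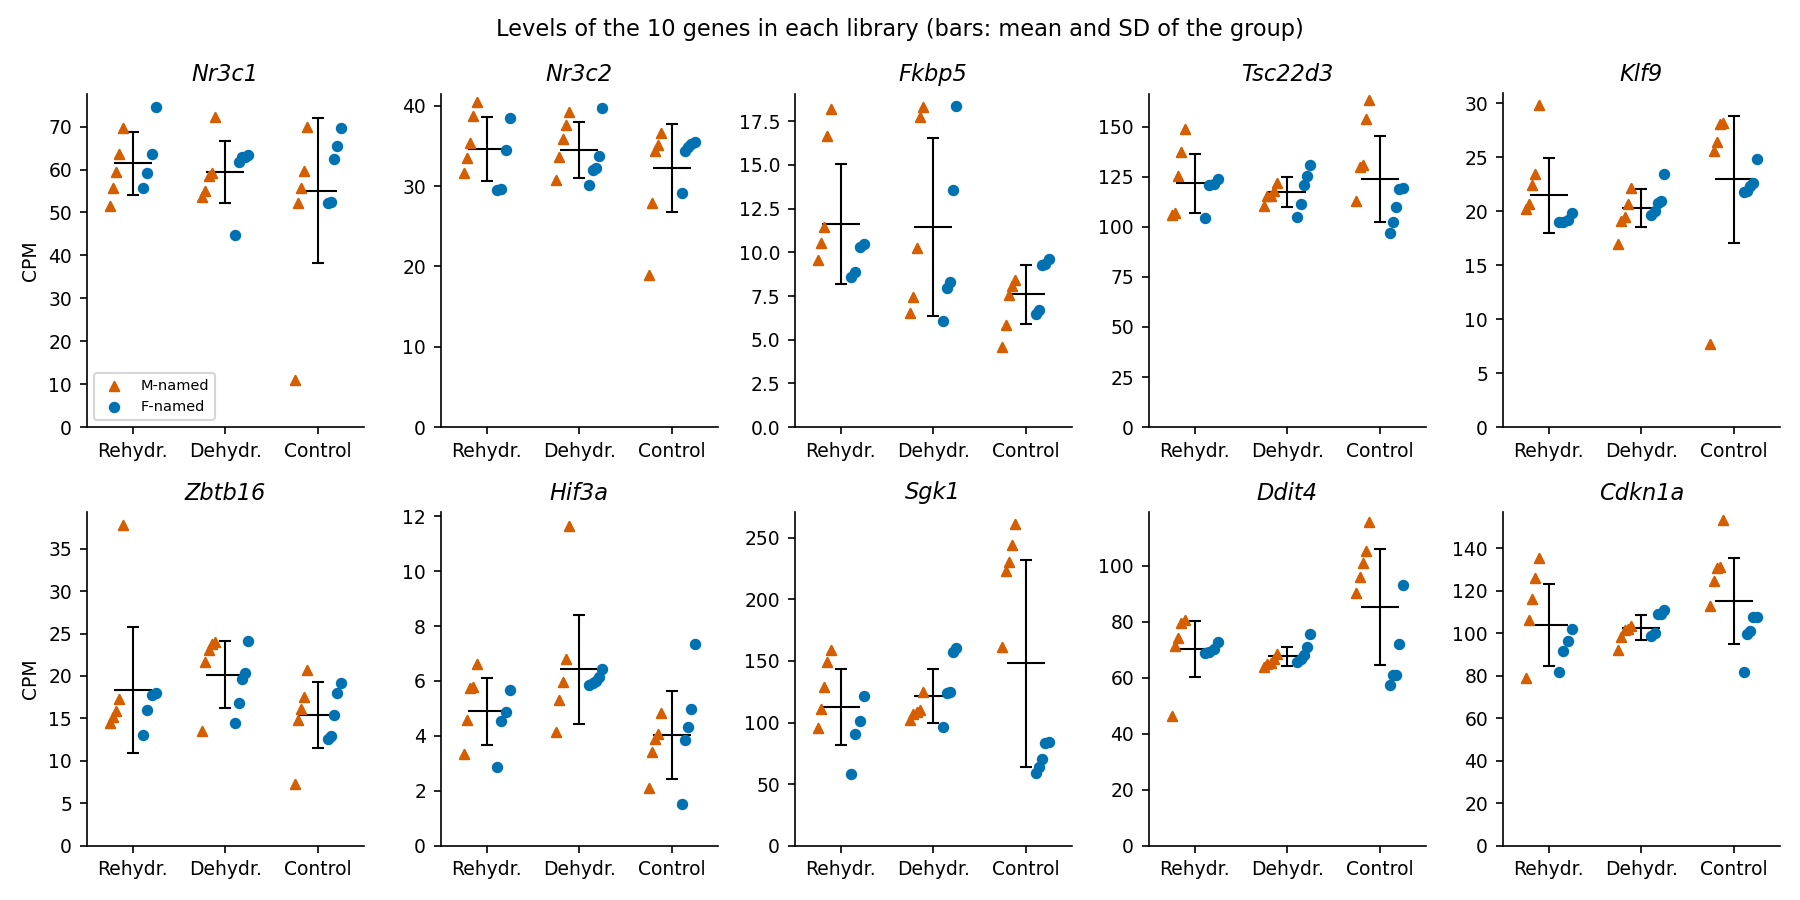
Level of each of the 10 genes in CPM (y axis) in the 9 Rehydrated, 10 Dehydrated and 10 Control libraries, with M-named libraries as triangles left of F-named libraries as circles; black bars give the group mean and SD. Sgk1 in Control splits by letter, at 161 to 261 CPM in M-named and 58.7 to 84.0 CPM in F-named libraries, and Control M01 is the lowest triangle of Nr3c1, at 11.0 CPM.

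Levels between genes were compared as CPM per kilobase of summed exon length, over the 29 libraries. Tsc22d3 was the most abundant at 73.1 ± 9.24 CPM per kilobase (SD, n = 29), ahead of Cdkn1a at 50.3 ± 7.90, Sgk1 at 42.2 ± 17.9 and Ddit4 at 37.96 ± 7.82. The receptors lay below, Nr3c1 at 16.4 ± 3.21 and Nr3c2 at 8.11 ± 1.06 CPM per kilobase, with Klf9 at 18.2 ± 3.45 just above them. Fkbp5 followed at 6.04 ± 2.39, Zbtb16 at 5.51 ± 1.68 and Hif3a at 1.695 ± 0.62 CPM per kilobase. Neighbours in this order kept it in 29 of 29 libraries for Tsc22d3 over Cdkn1a, Ddit4 over Klf9 and Zbtb16 over Hif3a. Nr3c1 was above Nr3c2 in 28 of 29 libraries, Nr3c2 above Fkbp5 in 24 and Cdkn1a above Sgk1 in 23. The order was least regular for Sgk1 over Ddit4 and Klf9 over Nr3c1 (18 of 29 each) and for Fkbp5 over Zbtb16 (17 of 29). Of all genes tested, 93.2% had a lower level per kilobase than Tsc22d3 and 13.3% a lower one than Hif3a.

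Nr3c1 encodes the glucocorticoid receptor (ENSJJAG00000023594, mJacJac1 chromosome 13, 41885127 to 42005791, plus strand). The lowest, median and highest library had 51.5, 59.4 and 74.5 CPM in Rehydrated, 44.8, 60.5 and 72.2 CPM in Dehydrated, and 11.0, 57.7 and 69.8 CPM in Control. The groups overlapped, and the 11.0 CPM of Control M01 was far from the other Controls, which began at 52.2 CPM. The log2 fold change was 0.10 (SE 0.17) in Dehydrated against Control, and -0.01 without Control M01. For Rehydrated against Control it was 0.17 (SE 0.17), and 0.04 without Control M01.

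Nr3c2 encodes the mineralocorticoid receptor (ENSJJAG00000014359, chromosome 12, 95600587 to 95996465, minus strand). Across libraries the lowest, median and highest values were 29.5, 34.5 and 40.45 CPM in Rehydrated, 30.1, 33.7 and 39.7 CPM in Dehydrated, and 18.9, 34.7 and 36.7 CPM in Control, where the lowest was again Control M01. The groups overlapped, with 3 of 10 Dehydrated and 3 of 9 Rehydrated libraries above every Control library. The log2 fold change was 0.10 (SE 0.09, 95% interval -0.09 to 0.29) in Dehydrated and 0.10 (SE 0.09, 95% interval -0.09 to 0.29) in Rehydrated libraries against Control. Without Control M01 these values of Nr3c2 were 0.04 and 0.03. For Nr3c1 the 95% interval was -0.24 to 0.44 in Dehydrated and -0.18 to 0.51 in Rehydrated libraries against Control.

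Fkbp5 encodes the co-chaperone FKBP51, which lowers the affinity of the glucocorticoid receptor for its hormone and is itself induced by it (ENSJJAG00000020149, chromosome 8, 4311819 to 4416368, minus strand). The lowest, median and highest library had 8.60, 10.5 and 18.2 CPM in Rehydrated, 6.10, 9.27 and 18.4 CPM in Dehydrated, and 4.57, 7.83 and 9.645 CPM in Control. All 9 Rehydrated libraries lay above the Control median and 6 above every Control library; of the Dehydrated libraries, 7 of 10 lay above the Control median and 5 above every Control library. Dehydrated libraries ran from low to high: F04, M05, M02, F07 and F03 ran from 6.10 to 8.30 CPM, M08 had 10.2, F05 had 13.6, and M06, M09 and F06 had 17.7, 18.3 and 18.4 CPM. The mean was 11.5 ± 5.08 CPM (SD, n = 10) in Dehydrated and 7.595 ± 1.67 CPM (SD, n = 10) in Control.

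The log2 fold change of Fkbp5 was 0.59 (SE 0.21) in Dehydrated and 0.59 (SE 0.21) in Rehydrated libraries against Control. Neither passed over all genes (edgeR adjusted p = 0.587 and 0.571), and both comparisons share the Control libraries. Control M01 had the lowest Fkbp5 of all libraries. In the authors' deposited tables, whose values for the members match a DESeq2 fit without that library, the log2 fold changes were 0.52 and 0.51. Rehydrated and Dehydrated libraries differed by -0.003 on this scale, with a 95% interval of -0.43 to 0.43. Within the M-named libraries, the 5 Rehydrated ones (9.58, 10.5, 11.5, 16.6 and 18.2 CPM) lay above all 5 Control ones (4.57, 5.85, 7.57, 8.09 and 8.44 CPM). The F-named libraries overlapped, with 8.60, 8.885, 10.3 and 10.5 CPM in Rehydrated and 6.50, 6.68, 9.27, 9.33 and 9.645 CPM in Control. The exact permutation test on the M-named libraries gave a two-sided p of 0.00794, the smallest that this design can give, and 0.0529 after adjustment over 60 such tests. In Rehydrated against Control, the difference in response between the letters was 0.73 (SE 0.42, edgeR adjusted p = 0.529). By labelled sex, the log2 fold change was 1.02 in males and 0.14 in females, a difference of 0.88 (SE 0.40, edgeR adjusted p = 0.799). In Dehydrated against Control the difference was 0.41 (SE 0.40, edgeR adjusted p = 0.767) by letter and 0.76 (SE 0.39, edgeR adjusted p = 0.818) by labelled sex.

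Tsc22d3, known as GILZ, binds inflammatory transcription factors and is among the most direct targets of the glucocorticoid receptor (ENSJJAG00000007049, chromosome X, 101555984 to 101564870, minus strand). Its lowest, median and highest library had 104, 121 and 149 CPM in Rehydrated, 105, 117 and 131 CPM in Dehydrated, and 97.0, 119 and 163 CPM in Control. The groups overlapped almost fully, and the highest library was Control M01. The log2 fold change was -0.06 (SE 0.08, 95% interval -0.22 to 0.10) in Dehydrated and -0.03 (SE 0.08, 95% interval -0.19 to 0.13) in Rehydrated libraries against Control. Without Control M01 these values of Tsc22d3 were -0.01 and 0.02.

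Klf9 encodes a zinc finger repressor of the Krüppel-like family that glucocorticoids and thyroid hormone induce in neurons (ENSJJAG00000003266, chromosome 1, 59795893 to 59818760, minus strand). Across libraries the lowest, median and highest values were 18.96, 20.2 and 29.8 CPM in Rehydrated, 16.98, 20.4 and 23.45 CPM in Dehydrated, and 7.71, 23.7 and 28.2 CPM in Control. All 10 Dehydrated libraries and 8 of 9 Rehydrated ones lay below the Control median, while Control M01, at 7.71 CPM, lay below all of them. On the log2 scale the fold change was -0.17 (SE 0.13) in Dehydrated and -0.10 (SE 0.14) in Rehydrated libraries against Control (edgeR adjusted p = 0.807 and 0.874). Without Control M01 these values were -0.27 and -0.21 (edgeR adjusted p = 0.394 and 0.535). In the authors' deposited table, whose values for the members match a DESeq2 fit that leaves this library out, Klf9 had a log2 fold change of -0.27 in Dehydrated against Control, with a p-value of 0.000923 and an adjusted p of 0.175.

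Zbtb16 encodes PLZF, a zinc finger factor that glucocorticoids induce in many tissues (ENSJJAG00000019821, chromosome 3, 101655062 to 101850651, minus strand). Its lowest, median and highest library had 13, 15.95 and 37.8 CPM in Rehydrated, 13.5, 21.02 and 24.1 CPM in Dehydrated, and 7.23, 15.7 and 20.7 CPM in Control. In Dehydrated, 8 of 10 libraries lay above the Control median and 5 above every Control library. In Rehydrated, M08 alone lay above every Control library, at 37.8 CPM, and the next highest library had 17.9 CPM. Its log2 fold change was 0.38 (SE 0.17, edgeR adjusted p = 0.735) in Dehydrated against Control, and 0.30 without Control M01, its lowest library. For Rehydrated against Control it was 0.23 (SE 0.18), 0.13 without Control M01 and 0.04 without Rehydrated M08.

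Hif3a encodes a hypoxia-inducible factor subunit whose shorter forms restrain the other subunits, and its transcript is known to rise under glucocorticoids (ENSJJAG00000017788, chromosome 14, 6302694 to 6348556, plus strand). Across libraries the lowest, median and highest values were 2.88, 4.88 and 6.63 CPM in Rehydrated, 4.13, 5.975 and 11.65 CPM in Dehydrated, and 1.51, 3.99 and 7.36 CPM in Control. All 10 Dehydrated libraries lay above the Control median, but 1 of them, M06, lay above every Control library. The log2 fold change in Dehydrated against Control was 0.67 (SE 0.21), the largest of the 10 genes, with the smallest p among them (edgeR p = 0.00285, adjusted p = 0.473). For Rehydrated against Control it was 0.26 (SE 0.21), with 0.17 when Control F02 and 0.41 when Control F05 was left out, and 8 of 9 Rehydrated libraries lay below the Dehydrated median, a log2 difference of -0.41 (SE 0.21, edgeR adjusted p = 0.9999) that was -0.26 without Dehydrated M06. Among F-named libraries the 4 Rehydrated ones (2.88, 4.53, 4.88 and 5.67 CPM) lay below the 5 Dehydrated ones (5.84, 5.93, 5.98, 6.13 and 6.45 CPM). This separation, 1 of 10 members against 2% of all genes, had an exact permutation p of 0.00794 and 0.0529 adjusted over 60 tests.

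**Figure D2:**
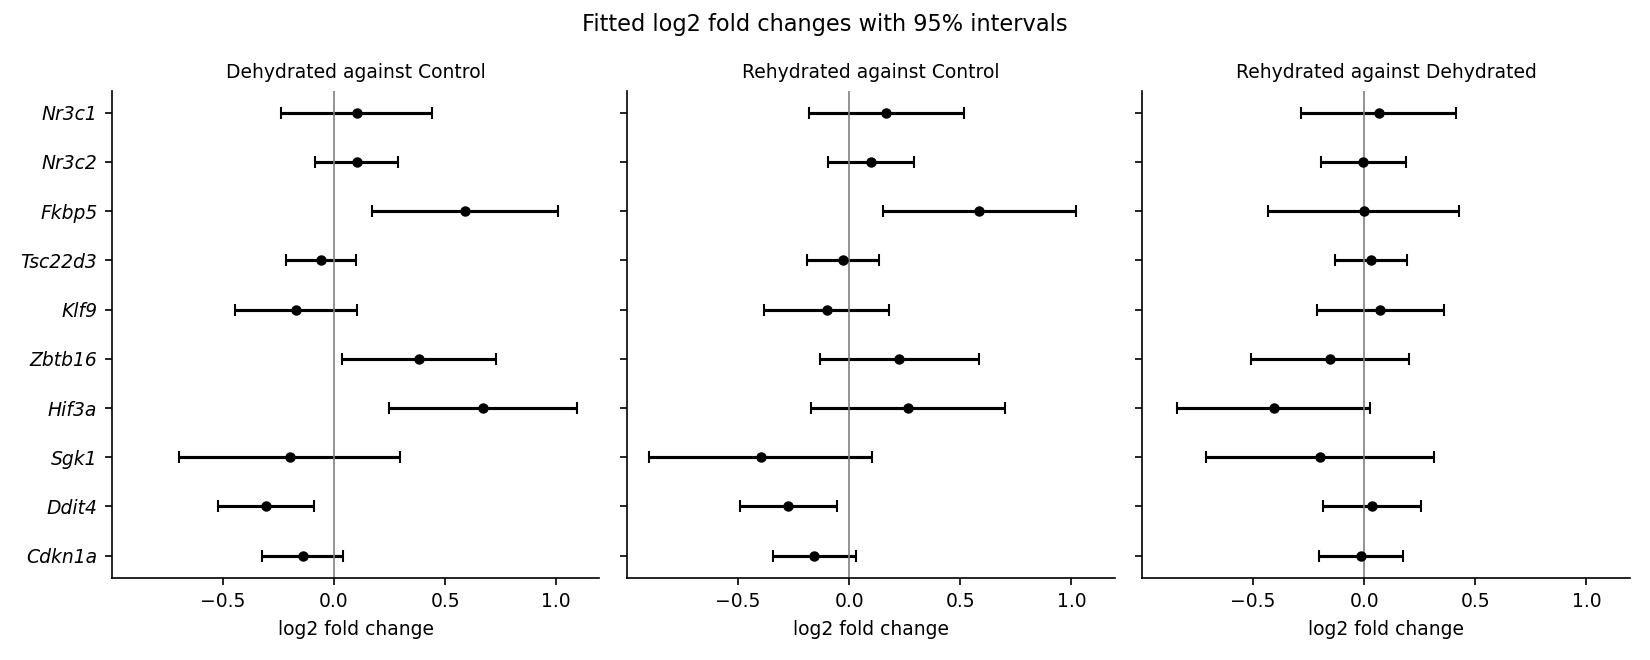
Fitted log2 fold change (x axis) of each gene in the 3 comparisons of treatment groups, with points for the estimate and bars for the 95% interval. Hif3a and Fkbp5 lie farthest to the right in Dehydrated against Control, at 0.67 and 0.59, Ddit4 lies to the left at -0.31, and the intervals of the 10 genes in Rehydrated against Dehydrated all hold 0.

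Sgk1 encodes a serine/threonine kinase that is induced by both receptors, by osmotic stress and by neuronal activity, and that keeps sodium channels at the membrane (ENSJJAG00000003911, chromosome 9, 31331855 to 31340605, plus strand). Over whole groups its lowest, median and highest library had 58.2, 111 and 159 CPM in Rehydrated, 96.6, 117 and 160 CPM in Dehydrated, and 58.7, 123 and 261 CPM in Control. The group SD was 31 CPM in Rehydrated, 21.9 CPM in Dehydrated and 84.25 CPM in Control. On the log2 scale the fold change was -0.20 (SE 0.24) in Dehydrated and -0.40 (SE 0.25) in Rehydrated libraries against Control (edgeR adjusted p = 0.859 and 0.722). Without Control M05, the library with the highest Sgk1, these values were 0.04 and -0.20.

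The wide spread of Sgk1 in Control lay between the name letters. The M-named Control libraries M01, M06, M03, M04 and M05 had 161, 223, 230.5, 244 and 261 CPM, and the F-named Control libraries F03, F06, F02, F05 and F01 had 58.7, 64.0, 70.3, 83.6 and 84.0 CPM. The letters did not overlap, and the 2 Control libraries whose letter is not their sex went with their letter: M05, labelled female, was the highest, and F03, labelled male, the lowest. In Dehydrated the letters overlapped, with 102, 107, 109, 110.5 and 124 CPM in M-named and 96.6, 124, 125, 158 and 160 CPM in F-named libraries. In Rehydrated they overlapped too, with 95.7, 111, 129, 149.5 and 159 CPM in M-named and 58.2, 90.3, 101 and 122 CPM in F-named libraries. Dehydrated libraries thus lay below Control ones under the M names and above them under the F names, with no overlap in either.

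In the fit by group and letter, the log2 fold change of Sgk1 in Dehydrated against Control was -1.02 in M-named and 0.88 in F-named libraries. The difference of -1.90 (SE 0.24) was past the threshold in edgeR (adjusted p = 0.000173), as the only member among 9 such genes, 0.0513% of those tested. It ran from -1.99 to -1.82 with each library left out in turn, past the threshold each time. With the 3 libraries of unlike letter and sex left out it was -1.75 (edgeR adjusted p = 0.00996). By labelled sex, the log2 fold change was -0.70 in males and 0.18 in females, a difference of -0.89 (SE 0.47, edgeR adjusted p = 0.818), and -1.46 (edgeR adjusted p = 0.528) without Control M05; 0 members and 0% of all genes were called by sex. In Rehydrated against Control, the log2 fold change of Sgk1 was -0.80 in M-named and 0.36 in F-named libraries. That difference of -1.16 (SE 0.24) had an edgeR adjusted p of 0.0948, where 0 members and 0% of all genes were called. It passed in 1 of 32 alternatives, the fit without Rehydrated F05 (-1.33, edgeR adjusted p = 0.0365). With each library left out in turn, the edgeR adjusted p reached 0.204.

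**Figure D3:**
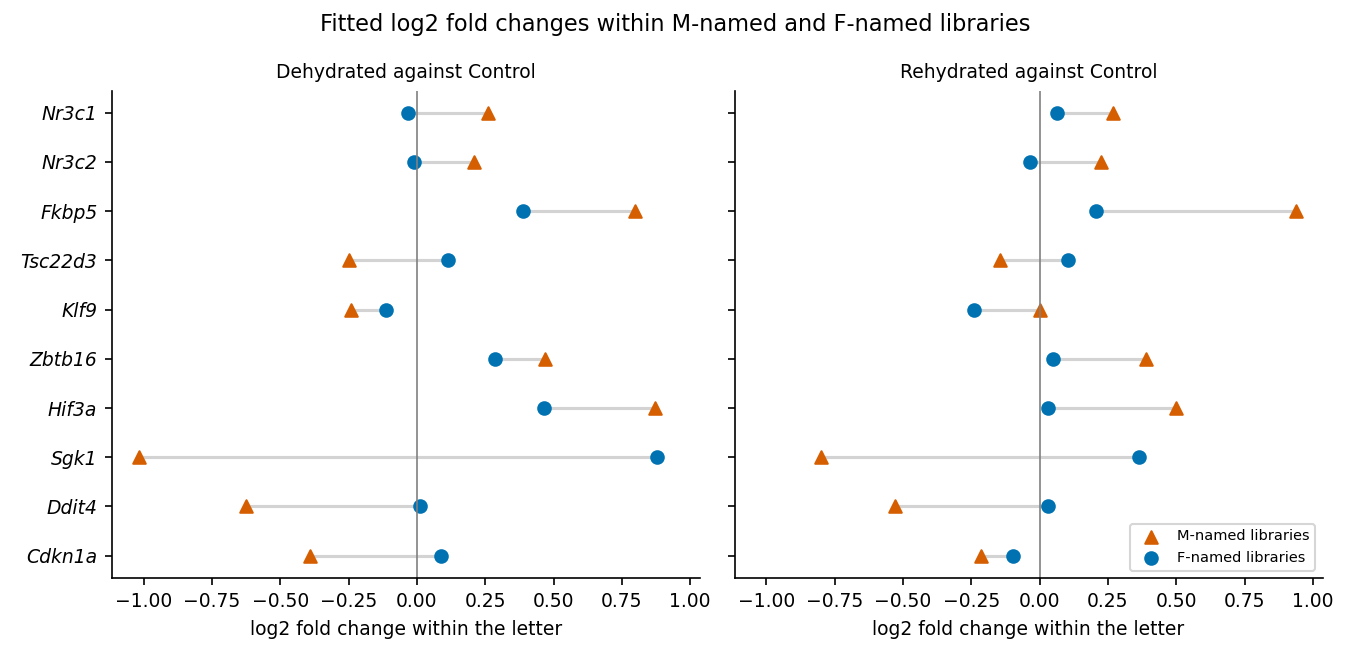
Fitted log2 fold change within M-named libraries (triangles) and within F-named libraries (circles) for each gene, Dehydrated against Control on the left and Rehydrated against Control on the right. Grey lines join the letters; that of Sgk1 in Dehydrated against Control crosses 0, with -1.02 in M-named and 0.88 in F-named libraries.

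Ddit4 encodes REDD1, which restrains the growth kinase complex mTORC1 and rises with glucocorticoids, low oxygen and energy stress (ENSJJAG00000033489, chromosome 18, 13594005 to 13596389, plus strand). Its lowest, median and highest library had 46.3, 71.5 and 80.7 CPM in Rehydrated, 64.0, 66.6 and 75.7 CPM in Dehydrated, and 57.2, 91.7 and 116 CPM in Control. All 10 Dehydrated and all 9 Rehydrated libraries lay below the Control median, and the Controls ran lower and higher than the Dehydrated libraries. Its log2 fold change was -0.31 (SE 0.11) in Dehydrated and -0.27 (SE 0.11) in Rehydrated libraries against Control (edgeR adjusted p = 0.578 and 0.587). In Control, M-named libraries had 90.3, 95.9, 101, 105 and 116 CPM and F-named libraries 57.2, 60.9, 61.0, 72 and 93.0 CPM. They overlapped through Control F03, the highest F-named library and labelled male. Within M-named libraries the log2 fold change in Dehydrated against Control was -0.63, against 0.01 within F-named ones. The difference of -0.64 (SE 0.17) had an edgeR adjusted p of 0.216. It passed in 1 of 32 alternatives, the fit without Control F03 (difference -0.77, edgeR adjusted p = 0.0492). With each library left out in turn, the edgeR adjusted p reached 0.357.

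Cdkn1a encodes p21, an inhibitor of cyclin-dependent kinases that p53 and glucocorticoids induce (ENSJJAG00000021179, chromosome 8, 5156455 to 5173459, plus strand). Across libraries the lowest, median and highest values were 78.7, 102 and 136 CPM in Rehydrated, 92.0, 102 and 111 CPM in Dehydrated, and 81.7, 110 and 153 CPM in Control. In Dehydrated, 9 of 10 libraries lay below the Control median, but inside the Control range. On the log2 scale the fold change was -0.14 (SE 0.09) in Dehydrated and -0.16 (SE 0.09) in Rehydrated libraries against Control (edgeR adjusted p = 0.798 and 0.709). Control split by letter here too, with 113, 125, 131, 131 and 153 CPM in M-named and 81.7, 99.6, 101, 108 and 108 CPM in F-named libraries. The letter difference in the response to dehydration was -0.48 (SE 0.15, edgeR adjusted p = 0.335).

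Within the letters, the members that separated between groups were counted and set beside the share of all genes that did. In Dehydrated against Control, M-named libraries did not overlap for 3 of 10 members (Ddit4, Sgk1 and Cdkn1a, all lower), against 2.84% of all genes, and F-named libraries for 1 of 10 (Sgk1, higher), against 0.917%. In Rehydrated against Control, M-named libraries did not overlap for 3 of 10 (Fkbp5 higher, Ddit4 and Sgk1 lower), against 1.15%, and F-named libraries for 1 of 10 (Klf9, lower), against 3.3%. In Rehydrated against Dehydrated, 0 of 10 did not overlap in M-named libraries, against 1.06% of all genes. Between the letters, M-named and F-named libraries did not overlap for 2 of 10 members in Control (Sgk1 and Cdkn1a), against 2.49% of all genes. In Rehydrated this held for 1 of 10 (Klf9), against 1.34%, and in Dehydrated for 0 of 10, against 0.689%. For the separations between groups the exact two-sided permutation p was 0.00794 each, the smallest these designs give, and 0.0529 adjusted over 60 tests. Between letters it was 0.00794 for Sgk1 and Cdkn1a in Control and 0.03175 for Klf9 in Rehydrated, or 0.119 and 0.1905 adjusted over 30 permutation tests. With Control M01 left out, the exact permutation p of the M-named separations from Control was 0.00794 for Ddit4, Sgk1 and Cdkn1a and 0.0159 for Fkbp5. Adjusted over the 20 such permutation tests made without that library, these were 0.0265 and 0.0453. Those 20 tests held only M-named comparisons with Control, where a larger share had the smallest possible p than among the 60. The adjusted values under 0.05 rest on that choice of tests, and the raw p of these genes did not fall. The M-named libraries then also separated for Klf9 in Dehydrated against Control. Dehydrated libraries had 16.98, 19.1, 19.4, 20.7 and 22.2 CPM and Control libraries 25.6, 26.4, 28.1 and 28.2 CPM. For Klf9 the exact permutation p was 0.00794, or 0.0265 adjusted over the same 20 tests. With Control M01 (7.71 CPM) included, the exact permutation p was 0.905, so this separation rests on leaving that library out. The share of all genes that separate without that library was not counted.

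Without regard to group, the letter and the sex each separated few genes. Between M-named and F-named libraries, with group as covariate, 0 of 10 members were called, against 0.0114% of all genes; Sgk1 had the largest difference, 0.61 (SE 0.18, edgeR adjusted p = 0.726). Between males and females 0 of 10 were called, against 0.0342% of all genes, with a difference for Sgk1 of 0.34 (SE 0.20, edgeR adjusted p = 0.993).

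Sgk1, Ddit4, Cdkn1a, Tsc22d3 and Klf9 varied together across libraries. After removal of the group means, and without Control M01, the correlation of log2 CPM over 28 libraries was 0.78 between Ddit4 and Cdkn1a, 0.73 between Tsc22d3 and Cdkn1a, 0.72 between Klf9 and Cdkn1a, and 0.61 between Sgk1 and Cdkn1a. Of the 45 pairs, 9 had a correlation above 0.5 and 0 below -0.5, and the median was 0.15. Fkbp5 stood outside this set: its highest correlation was with Zbtb16, at 0.56, and its lowest with Nr3c1, at -0.43. After the means of group and letter together were removed, Ddit4 with Cdkn1a stayed at 0.74, while Sgk1 with Cdkn1a came to 0.13, Sgk1 with Ddit4 to -0.15 and Sgk1 with Klf9 to -0.01. With Control M01 included, Klf9 and Cdkn1a correlated at 0.15 and Klf9 and Nr3c1 at 0.82, against -0.08 without it, so these values rest on that library. Libraries share their depth and tissue makeup, and these correlations are descriptions.

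**Figure D4:**
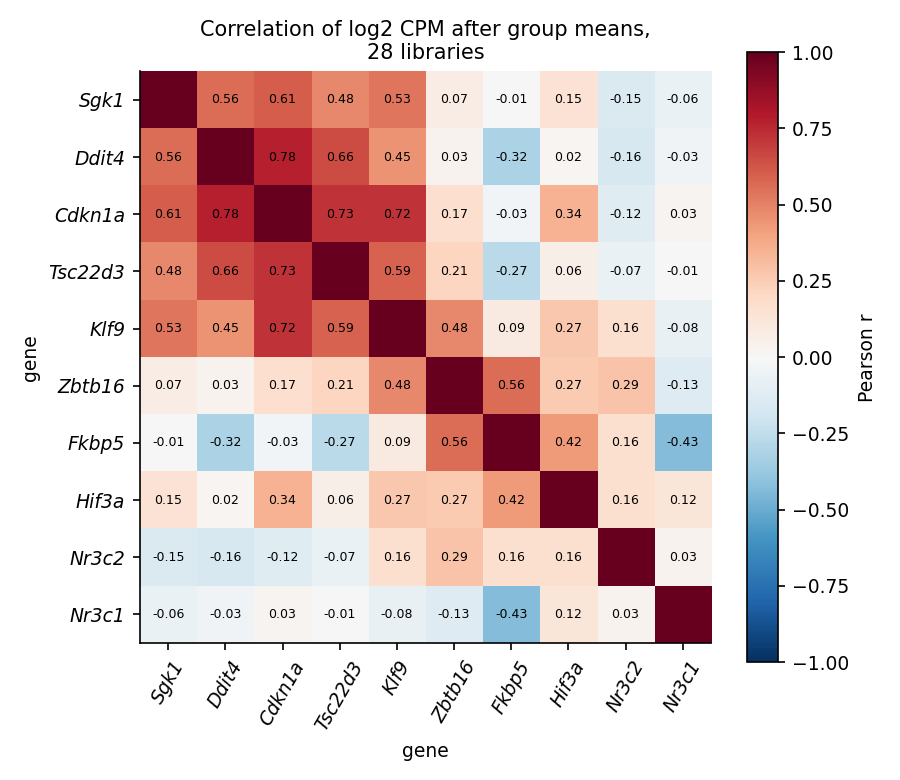
Pearson correlation of log2 CPM between each pair of the 10 genes (both axes list the genes), after group means were removed, over 28 libraries without Control M01; red is positive and blue negative. Sgk1, Ddit4, Cdkn1a, Tsc22d3 and Klf9 form a block of positive values, led by Ddit4 with Cdkn1a at 0.78, and Fkbp5 with Nr3c1 is the lowest pair at -0.43.

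Correlations with 12328 named genes were taken over the 28 libraries without removal of group means, unlike those between members. The genes whose log2 CPM correlated most with Fkbp5 were Nxn (0.70), Optn (0.70), Rtn4rl1 (0.67), Cant1 (0.65) and Maml3 (0.63). With Ddit4 they were Cdkn1a (0.79), Zc4h2 (0.79), Chka (0.77), Jpt1 (0.76) and Siah2 (0.76). With Klf9 they were Cdkn1a (0.71) and the activity-regulated or stress genes Egr3 (0.69), Dnajb1 (0.69), Egr4 (0.68) and Fosb (0.68). Cdkn1a thus headed the lists of both Ddit4 and Klf9. Over all 29 libraries the 5 genes of the Klf9 list correlated with it at 0.15 to 0.46.

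The genes around the receptors were followed in 9 lists, and 0 of their members passed the threshold in Dehydrated or in Rehydrated against Control by edgeR. The authors' deposited tables also had 0 of them with an adjusted p under 0.05. Unadjusted counts for Dehydrated against Control are given with each list. Of 26 tested genes in the list of other glucocorticoid-responsive genes, 10 were higher and 16 lower in Dehydrated than in Control (1 higher and 2 lower with an unadjusted p under 0.05), with a median log2 fold change of -0.07 beside -0.003 over all genes. The connexin gene Gjb6 had -0.30, the NF-kappaB inhibitor gene Nfkbia -0.45, the pyruvate dehydrogenase kinase gene Pdk4 0.705 and the phosphatase gene Dusp1 -0.21. In Rehydrated against Control, 9 of these 26 were higher and 17 lower, with a median of -0.11 (0 higher and 3 lower with an unadjusted p under 0.05). Of 20 chaperones and coregulators of the receptors, 11 were higher and 9 lower in Dehydrated, with a median of 0.003 (0 higher and 2 lower with an unadjusted p under 0.05). The heat-shock co-chaperone gene Dnajb1 had the largest change of that list, -0.92 (edgeR adjusted p = 0.243), while Ptges3 and Fkbp4, partners of HSP90 in the receptor complex, had -0.17 each and the corepressor gene Ncor1 0.09.

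Of the steroid supply and stress peptide genes, 7 of 16 were tested, and 3 were higher and 4 lower in Dehydrated than in Control, with a median of -0.05 (1 higher with an unadjusted p under 0.05). Hsd11b1, whose enzyme regenerates active glucocorticoid inside cells, had -0.28, the CRH receptor genes Crhr2 and Crhr1 0.49 and 0.40, and the CRH binding protein gene Crhbp -0.33. In Rehydrated against Control 6 of the 7 were higher, with a median of 0.21 (2 higher and 0 lower with an unadjusted p under 0.05). Of 15 tested sodium transport genes, 10 were higher and 5 lower in Dehydrated, with a median of 0.07 (1 higher and 1 lower with an unadjusted p under 0.05): the ubiquitin ligase gene Nedd4 had 0.35, the kinase gene Wnk1 0.18, the scaffold gene Cnksr3 -0.32 and the sodium channel subunit gene Scnn1g -0.39. Of 10 SGK kinases and substrates, 7 were higher and 3 lower, with a median of 0.07 (0 with an unadjusted p under 0.05). The transcription factor gene Foxo3 had 0.21 and Pdpk1, whose kinase activates SGK1, 0.23, beside 0.12 for Nedd4l and -0.42 for Sgk2.

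Around Ddit4, 7 of 17 genes of mTORC1 control were higher and 10 lower in Dehydrated than in Control, with a median of -0.01 (1 higher with an unadjusted p under 0.05); the mTOR inhibitor gene Deptor had 0.33 and the stress-induced Sesn2 -0.22. Around Cdkn1a, 4 of 15 genes of the p53 pathway were higher and 11 lower, with a median of -0.08 (2 lower with an unadjusted p under 0.05). The growth arrest gene Gadd45g had -0.74, with the smallest p of the 9 lists (edgeR p = 0.000419, adjusted p = 0.199), and Phlda3 had -0.39, Btg2 -0.35 and Gadd45b -0.28. Around Hif3a, 7 of 19 hypoxia genes were higher and 12 lower, with a median of -0.04 (1 lower with an unadjusted p under 0.05), among them the peptide gene Adm at -0.68 and Arnt2 at 0.26. Of the 11 other Krüppel-like factor genes, 5 were higher and 6 lower, with a median of -0.03 (3 lower with an unadjusted p under 0.05); Klf2 had -0.56, Klf4 -0.42, Klf15 -0.29 and Klf10 -0.25.

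**Figure D5:**
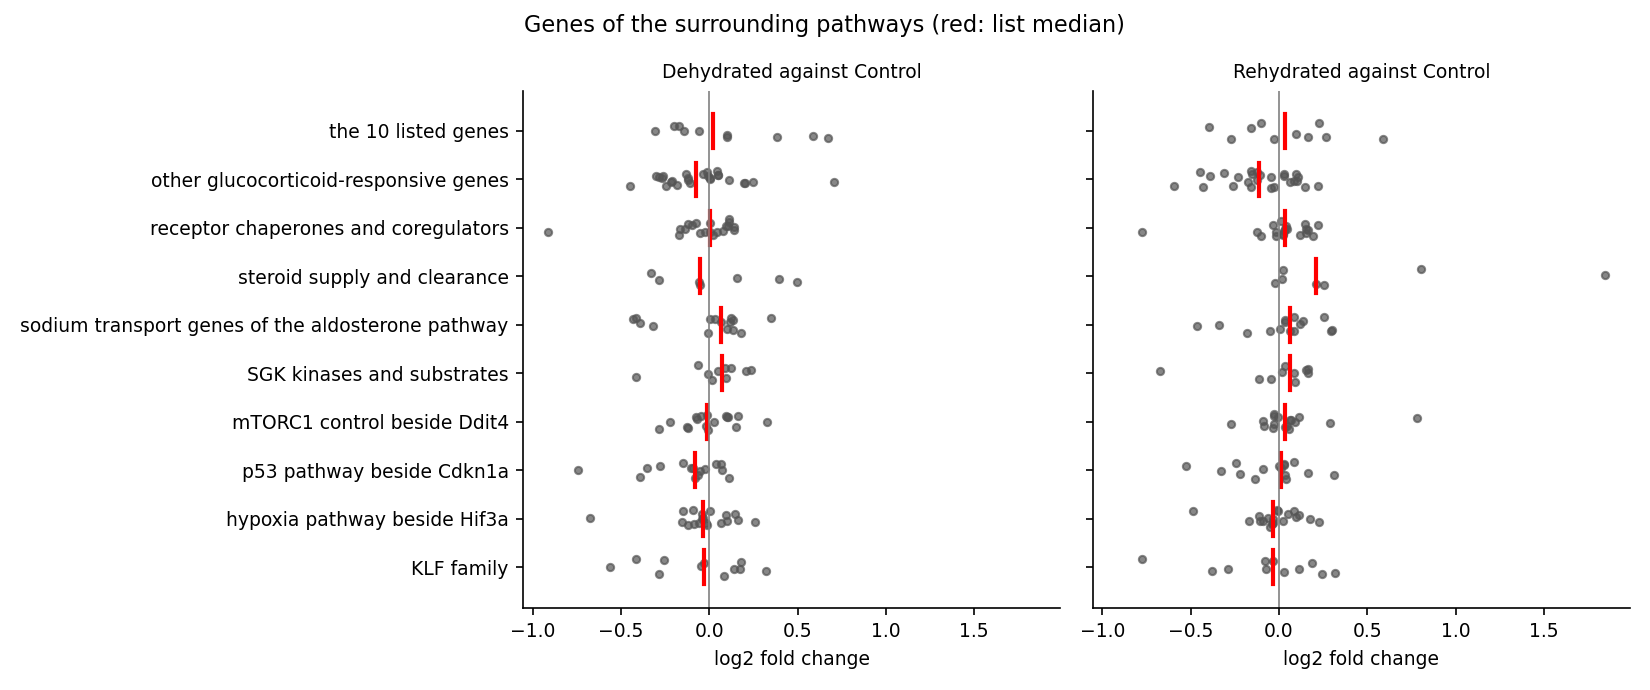
Fitted log2 fold change (x axis) of the 10 listed genes and of each tested gene in the 9 surrounding lists (rows), Dehydrated against Control on the left and Rehydrated against Control on the right, with 1 point a gene and a red bar at the list's median. Medians lie near 0 in Dehydrated against Control, between -0.08 (p53 pathway) and 0.07, and reach 0.21 for steroid supply in Rehydrated against Control.

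The letter difference seen in Sgk1 also passed in genes of these lists. In Dehydrated against Control it was -1.24 for Per1, the clock gene with a glucocorticoid response element, and -1.20 for Nfkbia (edgeR adjusted p = 0.00411 and 0.0237), 2 of 26 in the list of other glucocorticoid-responsive genes. It was -1.73 for Dnajb1 (edgeR adjusted p = 0.00411), 1 of 20 chaperones and coregulators, beside 0.0513% of all genes tested. All 3 were lower in Dehydrated than in Control libraries under the M names (log2 fold change -0.81, -1.003 and -1.67) and not under the F names (0.43, 0.19 and 0.05). The immediate-early genes, which neurons switch on within minutes of firing, had differences of the same sign: 17 of 19 had a difference below 0, with a median of -0.845, and Fos passed (-2.17, edgeR adjusted p = 0.00411). The median of all genes was 0.01. In Control, the mean log2 CPM of the immediate-early genes was 3.38 to 3.92 in M-named and 2.76 to 3.085 in F-named libraries, with no overlap. In Dehydrated libraries the letters overlapped for them, at 2.49 to 2.93 in M-named and 2.61 to 3.13 in F-named libraries. In Rehydrated libraries they overlapped narrowly, at 2.954 to 3.763 in M-named and 2.568 to 2.961 in F-named libraries. The part of the immediate-early genes in the letter difference of Sgk1 was not tested. Cell type markers also differed in sign by letter, with 0 genes of these lists past the threshold by edgeR. Of the astrocyte markers, 12 of 15 had a difference above 0 (median 0.36), and 9 of 11 oligodendrocyte markers had one below 0 (median -0.34). An unadjusted p under 0.05 was found for 4 astrocyte and 0 oligodendrocyte markers. Differences were above 0 for 5 of 6 choroid plexus (median 0.79), 8 of 10 mural (0.25) and 11 of 15 endothelial markers (0.17). They were below 0 for 6 of 7 ependymal markers (median -0.615). In Rehydrated against Control the sign of the oligodendrocyte markers was the other, with 10 of 11 above 0 (median 0.56). In Control, the mean log2 CPM of the astrocyte markers was 7.10 to 7.72 in M-named and 7.76 to 7.88 in F-named libraries, with no overlap, and their part in the letter difference of Sgk1 was not tested. The other 4 of the 9 genes past the threshold, named after their values were seen, were Csrnp1 (-1.33), Manf (-0.71), Notch1 (0.98) and Ppp1r3c (0.94).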

How the data were processed

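Fragments per gene were counted with featureCounts 1.6.2 in paired-end mode, with no strand option, on the Ensembl annotation of mJacJac1, per the file headers; reads of a gene and its antisense partner therefore cannot be told apart. Among the members, Fkbp5 and Nr3c2 each overlap 1 gene on the other strand. For the aligner, no name is given in the sources used here. Raw counts were deposited by the authors, together with DESeq2 tables (per the submitters' processing notes) of log2 fold changes with standard errors and p-values. The deposited exon length served for levels per kilobase. Another 56 columns of per-sample values were not used. The labels number singly housed animals; no replicate is described further, so p-values measure the spread between these libraries.

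Genes with low counts were removed (11612 genes with 0.126% of the counts), which left 17558 for edgeR (4.0.16, under R 4.3.3): TMM scaling, group and labelled sex in the model, the quasi-likelihood test, Benjamini-Hochberg adjustment and a threshold of 0.05. Interaction terms tested whether responses differed between sexes or between name letters. Log2 CPM used a prior count of 2. Single values within a letter were tested by exact two-sided permutation (scipy 1.17.1). Intervals are 95%. DESeq2 1.42.0, other scalings and filters, left-out libraries and fits by sex or letter were alternatives; all analyses by name letter, and the XIST check, were chosen after seeing the data. The fits were tested on simulated data. Names came from the authors (9699 genes) and from RefSeq positions (5594). Library totals of 10797577 to 18856620 gave a median standard error of 0.12 on the log2 scale in Dehydrated against Control. Members and lists were chosen with earlier results of these data known. Named genes are the members, the 5 most alike in pattern to Fkbp5, Ddit4 and Klf9, and the 4 with the smallest p in each list.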

Additional observations from a re-analysis of the deposited data

Results flagged for a closer look

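The response of Sgk1 differed between the name letters: the log2 fold change in Dehydrated against Control, M-named minus F-named, was -1.90. It was tested with an interaction term, and every M-named Dehydrated library was below every M-named Control library while every F-named one was above.

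Among the 30 sets of 1 gene in 1 group, 7 values lay far from the rest of their group, where chance flags about 1 in 20 groups. Control M01 held 3 of them, the lowest Control level of Nr3c1 (10.95 CPM), Nr3c2 (18.94 CPM) and Klf9 (7.71 CPM). Its summed microglia markers, 624 CPM, were the highest of the 29 libraries, and their part in these levels was not tested. Rehydrated M08 held the highest Rehydrated level of Zbtb16 (37.79 CPM) and of Klf9 (29.79 CPM), and the lowest magnocellular marker sum of its group, 1961 CPM. Hif3a was highest in Dehydrated M06 (11.65 CPM). Ddit4 was lowest in Rehydrated M04 (46.27 CPM), the library with the highest blood marker sum, 992 CPM, and the library number 49. The part of the marker sums or of the numbering in the levels of Rehydrated M08 and M04 was not tested.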

How the results depend on the processing

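Of 2630 values of single members under alternatives, 7 passed the threshold where the main value did not. Another 24 changed sign by more than the standard error of the main value. The letter difference of Sgk1 in Dehydrated against Control, past the threshold in the main fit, stayed past it in 32 of 32 alternatives. Apart from the 7 and the 24, 2599 values stayed on their side of the threshold, and 79 of these changed sign by less than that standard error.

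Genes called in Dehydrated against Control (22) numbered 12 with a replicate block, 11 with only the compared groups, 0 in females, males or F-named libraries alone, 13 in M-named alone, 44 by DESeq2 and 47 by DESeq2 without Control M01. In Rehydrated against Control (0) they numbered 2 in females alone, 16 by DESeq2, 4 by DESeq2 without Control M01 and 6 in M-named libraries without it. In Rehydrated against Dehydrated (4) they numbered 2 with no scaling, 1 with only the compared groups and in males alone, 0 in females, F-named or M-named libraries alone (also without Control M01), and 16 and 19 by DESeq2 with and without Control M01. Members called were 1 in M-named libraries alone in Dehydrated against Control (Sgk1, -1.02), 2 there without Control M01 (Ddit4 -0.65, Sgk1 -1.12), and 1 in Rehydrated against Control without it (Sgk1, -0.90). Genes whose response differed numbered 9 by letter in place of sex (Sgk1 -1.90), and 4 by letter in libraries whose letter is the sex.

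With each library left out, these counts ran from 10 (with Dehydrated M06, Control M03 or Control F01 left out) to 27 (without Dehydrated F07) in Dehydrated against Control, and were 11 to 14 without Control F03, F05, F06, M04 or M05 or Dehydrated F05, F06, M08 or M09. They ran from 0 to 2 (without Rehydrated M05) in Rehydrated against Control and from 2 to 9 (without Dehydrated F07; 7 without Dehydrated M02) in Rehydrated against Dehydrated; letter differences ran from 5 (without Dehydrated M05) to 16 (without Control M01), and in Rehydrated against Control from 0 to 21 (without Control M03). The Zbtb16 letter difference there ran from -0.016 to 0.48.

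Signs changed as follows. In females alone: Dehydrated against Control, Sgk1 0.18, Tsc22d3 0.085, Cdkn1a 0.0043; Rehydrated against Control, Tsc22d3 0.076, Zbtb16 -0.036; Rehydrated against Dehydrated, Klf9 -0.10. In males alone: Rehydrated against Control, Klf9 0.059; Rehydrated against Dehydrated, Sgk1 0.19, Cdkn1a 0.17. In F-named libraries: Dehydrated against Control, Ddit4 0.012, Sgk1 0.88, Tsc22d3 0.12, Nr3c2 -0.011, Cdkn1a 0.088; Rehydrated against Control, Ddit4 0.031, Sgk1 0.36, Tsc22d3 0.10, Nr3c2 -0.033; Rehydrated against Dehydrated, Klf9 -0.13. In M-named libraries, Rehydrated against Dehydrated, Sgk1 had 0.22 and Cdkn1a 0.18, with and without Control M01. The cause was not tested.

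Same-coded libraries did not pair: 2 of 19 pairs had a correlation over 0.1 (median 0.016), and 2 of 23 libraries correlated best with their own code. The replicate block called 0 members. The number and spread of libraries limit what could be called.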
